A study of Mus musculus with 2 samples.

Results

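*Ndn*, *Magel2*, *Mkrn3* and *Peg12* are 4 intronless protein-coding genes that lie side by side on mouse chromosome 7, at the distal end of the region whose human counterpart is lost or silenced in Prader-Willi syndrome. They were chosen by name. Of 37310 genes in the GENCODE M1 annotation of mm9, 1770 lay in covered stretches of the RNA sequencing tracks, all 4 among them. A stretch joins covered bases up to 50 kb apart, so a gene within it can hold few reads or none. The study set out to map imprinted transcription in mouse embryo fibroblasts (MEFs) of reciprocal crosses by strand-specific RNA sequencing. The JXO library came from MEFs of a JF1 mother and a TgOG2 (OG2) father, and the OXJ library from MEFs of an OG2 mother and a JF1 father. JF1 is an inbred strain of *Mus musculus molossinus*, and OG2 carries in both crosses an EGFP transgene that is driven by the *Pou5f1* promoter and active in germ cells. Each MEF line was grown from 1 female embryo at 13.5 dpc, after the head and inner organs had been taken away, and was used at early passage. With 1 library per cross there were no replicates and no test between crosses. The mother's and father's strain, the embryo, the culture and the library all changed together between JXO and OXJ and cannot be told apart.

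The 4 genes are known as paternally expressed, under the control of an imprinting centre at the *Snrpn* promoter. An imprinted gene of this kind carries DNA methylation on the maternal copy and is read from the paternal copy. *Ndn* encodes necdin, a protein of the MAGE family that restrains cell division and is best known from neurons. *Magel2* encodes another MAGE protein, which works with a ubiquitin ligase in endosomal protein recycling and is most active in the hypothalamus. *Mkrn3* encodes a makorin RING finger ubiquitin ligase, whose loss in humans brings on puberty early. *Peg12*, also called *Frat3*, encodes a member of the FRAT family of proteins that bind the kinase GSK3. The parental origin of the reads cannot be seen in depth tracks and was not analysed here.

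The genes stand in 2 pairs of opposite direction. *Ndn* (ENSMUSG00000033585.4, chr7:69493163-69494814, 1652 bases) and *Magel2* (ENSMUSG00000056972.5, chr7:69521865-69526526, 4662 bases) are on the (+) strand. *Mkrn3* (ENSMUSG00000070527.2, chr7:69562479-69565039, 2561 bases) and *Peg12* (ENSMUSG00000070526.2, chr7:69606757-69609396, 2640 bases) are on the (−) strand. Each consists of 1 exon, with a coding sequence of 325 codons in *Ndn*, 1284 in *Magel2*, 544 in *Mkrn3* and 283 in *Peg12*. The 3′UTR, counted with the stop codon, has 546 bases in *Ndn*, 439 in *Magel2*, 817 in *Mkrn3* and 1628 in *Peg12*, where it is longer than the coding sequence of 849 bases. No exon of another annotated gene lay within 5 kb of any of them.

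The 250 bases before each annotated start are shown because the RNA signal described below began at or close to these starts in 3 of the 4 genes. They were taken from the RefSeq promoter table of GRCm38.p6 and placed on mm9 by an exact match, which was found for 4 of 4 genes, with the RefSeq start on the same base as the GENCODE start. Capitals mark matches to the motifs searched on both strands. The *Ndn* stretch is chr7:69492913-69493162 (+), that of *Magel2* chr7:69521615-69521864 (+), that of *Mkrn3* chr7:69565040-69565289 (−) and that of *Peg12* chr7:69609397-69609646 (−).

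Ndn: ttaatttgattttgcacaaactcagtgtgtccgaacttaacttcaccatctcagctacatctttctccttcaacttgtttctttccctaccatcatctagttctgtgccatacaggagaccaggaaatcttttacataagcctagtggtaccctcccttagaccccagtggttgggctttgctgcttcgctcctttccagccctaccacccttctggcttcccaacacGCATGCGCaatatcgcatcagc

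Magel2: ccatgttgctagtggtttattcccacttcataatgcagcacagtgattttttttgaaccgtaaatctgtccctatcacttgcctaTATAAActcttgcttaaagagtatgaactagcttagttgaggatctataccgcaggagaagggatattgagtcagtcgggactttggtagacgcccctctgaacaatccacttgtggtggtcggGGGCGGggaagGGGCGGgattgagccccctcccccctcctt

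Mkrn3: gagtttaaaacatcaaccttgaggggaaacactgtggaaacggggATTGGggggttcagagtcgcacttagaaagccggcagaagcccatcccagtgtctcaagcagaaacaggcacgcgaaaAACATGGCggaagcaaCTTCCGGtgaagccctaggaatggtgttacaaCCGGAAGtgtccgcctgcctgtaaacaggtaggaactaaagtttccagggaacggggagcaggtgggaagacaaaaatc

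Peg12: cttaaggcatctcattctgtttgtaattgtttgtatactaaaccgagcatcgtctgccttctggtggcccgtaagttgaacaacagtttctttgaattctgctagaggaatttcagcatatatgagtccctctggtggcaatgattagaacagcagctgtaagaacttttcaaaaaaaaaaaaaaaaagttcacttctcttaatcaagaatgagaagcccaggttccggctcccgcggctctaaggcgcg

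Positions are counted from the first base of the gene as 0, shares are over the 32851 RefSeq promoters of the same length, and no match overlapped one to another motif. *Ndn* had a match to the NRF1 motif GCATGCGC at positions −22 to −15, which 2.71% of promoters hold, and 2 overlapping matches to the GC box GGGCGG just after its start (35.7% of promoters). *Magel2* had a match to the TATA box TATAAA at −165, which 13.6% of promoters hold, and GC boxes at −41 and −30. *Mkrn3* had a CCAAT match at −205, held by 37.4% of promoters, and a match to the YY1 motif GCCATNTT at −127, held by 6.05%. It also had matches to CCGGAAG, the letters of ETS factors, at −111 and −79, held by 8.86%. *Peg12* had no match to any of these 6 motifs in the window. The 250 bases held 5 CpG in *Ndn*, 7 in *Magel2*, 10 in *Mkrn3* and 8 in *Peg12*, with 47.2%, 48.8%, 52.0% and 42.0% G and C. These matches describe letters and not binding.

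The deposited values give the read depth at each base on either strand, scaled to 50000000 aligned reads, so that 1 read over a base is worth 0.652 in JXO and 0.579 in OXJ. A level below is the mean scaled depth over the bases of a gene, and is thus per length. The tracks held 5837225 reads of JXO (7.61% of those aligned) and 5785447 of OXJ (6.70%), lying in 618 covered stretches of 63.7 Mb in total. Intervals are 95% exact intervals on pairs of reads and cover counting error only. Read counts are read bases divided by the read length of 100 bases. Of protein-coding genes other than the 4, 94.5% in JXO (676 genes) and 94.5% in OXJ (669 genes) had more signal on the strand of their annotation. Of the 15 fibroblast markers, 3 could be measured, *Col1a2*, *Lum* and *Dcn*, with levels of 18.9 to 583 in JXO and 15.5 to 388 in OXJ. Of the 11 neural markers, 3 could be measured, *Nes*, *Sox2* and *Olig2*, with levels of 0.615 to 340 in JXO and 0.167 to 155 in OXJ. Markers of muscle, blood, endothelium, epithelium and fat were not analysed.

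All 4 genes fell within a single covered stretch of 185.7 kb, chr7:69493172-69678822, which opens 9 bases inside *Ndn*. The bases in front of *Ndn* are therefore outside the stretch, and a depth of 0 there is no measurement of silence. Signal is described here over the genes, in the gaps between them and in the 5 kb before *Peg12*. The rest of the stretch, beyond those 5 kb, is not described. Between *Ndn* and *Magel2* (27.05 kb) no read lay on either strand in JXO or OXJ. Between *Magel2* and *Mkrn3* (35.952 kb) there were 15 reads in JXO and 19 in OXJ, all on the (−) strand, which is the strand of *Mkrn3*. Between *Mkrn3* and *Peg12* (41.717 kb) the (−) strand held 356 reads in JXO and 134 in OXJ, and the (+) strand 14 and 3.

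The order of the levels was *Ndn*, *Peg12*, *Mkrn3*, *Magel2* in both libraries, and the counting intervals of neighbours in this order did not overlap. *Ndn* had a level of 76.2 in JXO (71.5 to 81.2, from 1932 reads) and 48.2 in OXJ (44.7 to 52.0, from 1376 reads). *Peg12* had 31.7 in JXO (29.3 to 34.2, from 1284 reads) and 18.6 in OXJ (16.9 to 20.4, from 848 reads). *Mkrn3*, the ubiquitin ligase gene, stood more than an order of magnitude below, with 1.83 in JXO (1.28 to 2.54, from 72 reads) and 1.65 in OXJ (1.16 to 2.28, from 73 reads). *Magel2* had 4 reads in JXO, a level of 0.0559 (0.00677 to 0.202), and 2 reads in OXJ, a level of 0.0248 (0.000629 to 0.138).

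Set among the 931 genes with at least 10 reads over both libraries, *Ndn* was above 81.2% of them in JXO and 80.6% in OXJ. *Peg12* was above 68.1% and 63.9%, and *Mkrn3* above 25.7% and 25.5%. *Magel2*, with 4 reads in JXO and 2 in OXJ, is not among these genes, and its level was above 0.322% of them in JXO and 0% in OXJ. Genes with fewer than 10 reads were left out, so its rank among all genes in the tracks is not given by this. Genes side by side thus had levels from the upper part of the range of the 931 genes down to its lower end. Fewer cells that transcribe a gene and less RNA in each cell cannot be told apart in such bulk libraries.

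**Figure D1:**
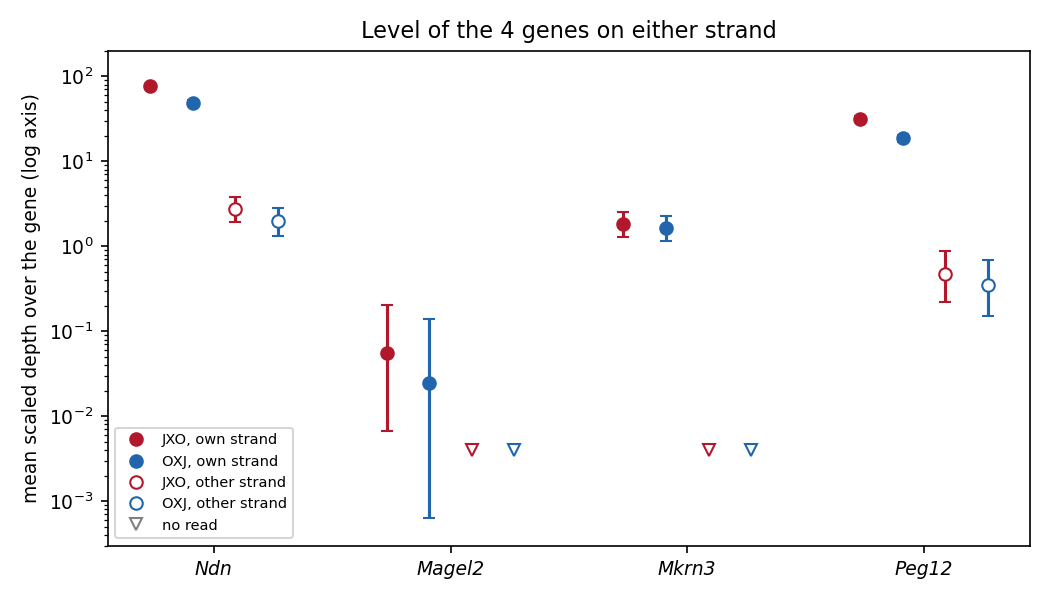
Level of the 4 genes as mean scaled depth (log axis) in JXO (red) and OXJ (blue), on the strand of the gene (filled) and on the other strand (open), with 95% counting intervals. Triangles stand for a strand without a read and are drawn at an arbitrary height; the levels on the own strand run from 76.2 in JXO and 48.2 in OXJ for *Ndn* down to 0.0559 and 0.0248 for *Magel2*.

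The signal was almost entirely on the strand of each gene. *Ndn* had 96.5% of its signal on its own strand in JXO (95.2 to 97.6%) and 96.1% in OXJ (94.4 to 97.4%). *Peg12* had 98.5% in JXO (97.3 to 99.3%) and 98.2% in OXJ (96.4 to 99.2%). All reads over *Mkrn3* were on its own strand, 72 in JXO (a share of at least 90.3%) and 73 in OXJ (at least 90.4%). The few reads over *Magel2* were on its own strand too, which at 4 and 2 reads bounds the share only at 15.8% in JXO and 2.5% in OXJ. *Ndn*, *Peg12* and *Mkrn3*, the 3 with at least 10 reads, had at least 95% of their signal on their own strand in both libraries, as had 571 of 997 genes (57.3%). Over its coding sequence alone, *Ndn* had 94.8% in OXJ, under that limit. More than 50% in both was reached by 86.9% of genes.

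The weak signal on the other strand of *Ndn* covered most of the gene but was uneven. It had a level of 2.76 in JXO (1.92 to 3.84, from 70 reads) and 1.96 in OXJ (1.30 to 2.84, from 56 reads), and covered 87.1% and 95.1% of the bases. It was highest in the bin of 100 bases at 700 bases from the start in JXO (8.98) and at 800 in OXJ (6.54). Its height along the gene followed that of the own strand only loosely, with r = 0.158 in JXO and 0.304 in OXJ over 16 bins of 100 bases, which share the library. The other strand of *Peg12* had 0.469 in JXO (from 19 reads) and 0.350 in OXJ (from 16 reads).

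The signal of *Ndn* filled the annotated gene and stopped at its 3′ end, while the bases before its 5′ end were outside the stretch. It formed a single unbroken run of 1638 bases in JXO and 1631 in OXJ, beginning 9 and 19 bases after the annotated start and ending 5 and 2 bases before the annotated end. An AATAAA hexamer, the usual letters of a polyadenylation signal, ended 14 bases before the end of the signal in JXO and 17 in OXJ. Depth was lowest in the first 100 bases, at 8.34 in JXO and 8.19 in OXJ, and highest in the bin at 1400 bases in JXO (129) and at 1500 bases in OXJ (89.9), within the 3′UTR. By part of the gene, *Ndn* had 14.3 in JXO and 13.8 in OXJ over the 5′UTR, 71.9 and 45.8 over the coding sequence, and 98.7 and 60.8 over the 3′UTR. The shape over the 16 bins was alike in the libraries (r = 0.873 between JXO and OXJ, bins of the same bases). In the 5 kb after *Ndn* there was no read on its strand, which allows a level of up to 0.0962 in JXO and 0.0854 in OXJ (upper ends of the exact intervals), or 0.126% of the gene level in JXO and 0.177% in OXJ.

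*Mkrn3* was covered end to end but thinly. Reads covered 88.2% of its bases in JXO and 93.2% in OXJ, with at most 11 and 10 reads over a base. Signal began 32 and 31 bases after the annotated start and ended 47 and 48 bases before the annotated end, with no hexamer AATAAA in the 60 bases before the end of the signal and one 17 bases before the annotated end. The levels over the coding sequence were 1.87 in JXO and 1.76 in OXJ, and those over the 3′UTR 1.88 and 1.46, with overlapping intervals. At this depth the profiles of the libraries had r = 0.104 over 25 bins. After the annotated end, separate reads followed on the same strand, 11 in JXO and 13.7 in OXJ over 5 kb. They amounted to 7.83% of the gene level in JXO (2.71 to 17.6%) and 9.58% in OXJ (3.80 to 19.9%). No read on the strand of *Mkrn3* lay in the 5 kb before its start.

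*Magel2* showed isolated fragments. The 4 reads of JXO lay within 277 bases that began 3952 bases after the annotated start, at the end of the coding sequence, and the 2 reads of OXJ within 251 bases that began 1255 bases after it. They covered 5.94% of the gene in JXO and 4.29% in OXJ and had no base in common between libraries. The first 1255 bases, and the 5 kb on either side on both strands, held no read in either library. The level of *Magel2* was below that which 3 pairs of reads would give, 0.0839 in JXO and 0.0745 in OXJ.

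*Peg12* was the gene of the 4 whose signal ran on past its annotated end with gaps no longer than a read. Signal began 42 bases before the annotated start in JXO and 40 in OXJ, and, bridging gaps of up to 100 bases, ran to 3032 and 2966 bases past the annotated end. Without any bridging it ended 2369 bases past the end in JXO and 66 in OXJ. An AATAAA hexamer ended 30 bases before the annotated end, and others ended 7 bases before the far end of the signal in JXO and 53 in OXJ. In steps of 1 kb after the annotated end, the level was 10.4 in JXO and 3.09 in OXJ, then 7.39 and 2.13, then 5.34 and 2.38. In the fourth kb it was 0.0417 in JXO and 0.0579 in OXJ, and in the fifth no read was left. All of the (−) strand reads between *Mkrn3* and *Peg12* in JXO, and 132 of the 134 in OXJ, were in this 5 kb. The downstream signal amounted to 14.6% of the gene level in JXO (12.6 to 17.0%) and 8.23% in OXJ (6.37 to 10.5%), intervals that do not overlap each other or those of *Ndn*. They do overlap those of *Mkrn3*, which had 7.83% in JXO (2.71 to 17.6%) and 9.58% in OXJ (3.80 to 19.9%). By this share *Peg12* was thus not set apart from *Mkrn3*. Intervals of such shares take the gene level as fixed and count each pair of reads as independent, so they are too narrow. Against the last 1 kb of the gene the shares lay closer, at 12.4% in JXO and 8.86% in OXJ. In the 5 kb before *Peg12* there were 0.42 reads in JXO and 1.97 in OXJ on its strand.

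Taken by part, the level of *Peg12* rose from the 5′UTR to the coding sequence and on to the 3′UTR. The climb was not steady, as the lowest bin lay inside the coding sequence and below the level of the 5′UTR. In JXO 39 bases of the coding sequence held no read, against 0 in OXJ. The level was 5.64 in JXO and 5.69 in OXJ over the 5′UTR, 17.6 and 16.0 over the coding sequence and 41.6 and 21.2 over the 3′UTR. The highest bin was at 1400 bases in JXO (65.4) and at 1600 bases in OXJ (36.5), and the lowest at 400 bases in both (1.95 and 4.63). The profiles had r = 0.768 over 26 bins.

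**Figure D2:**
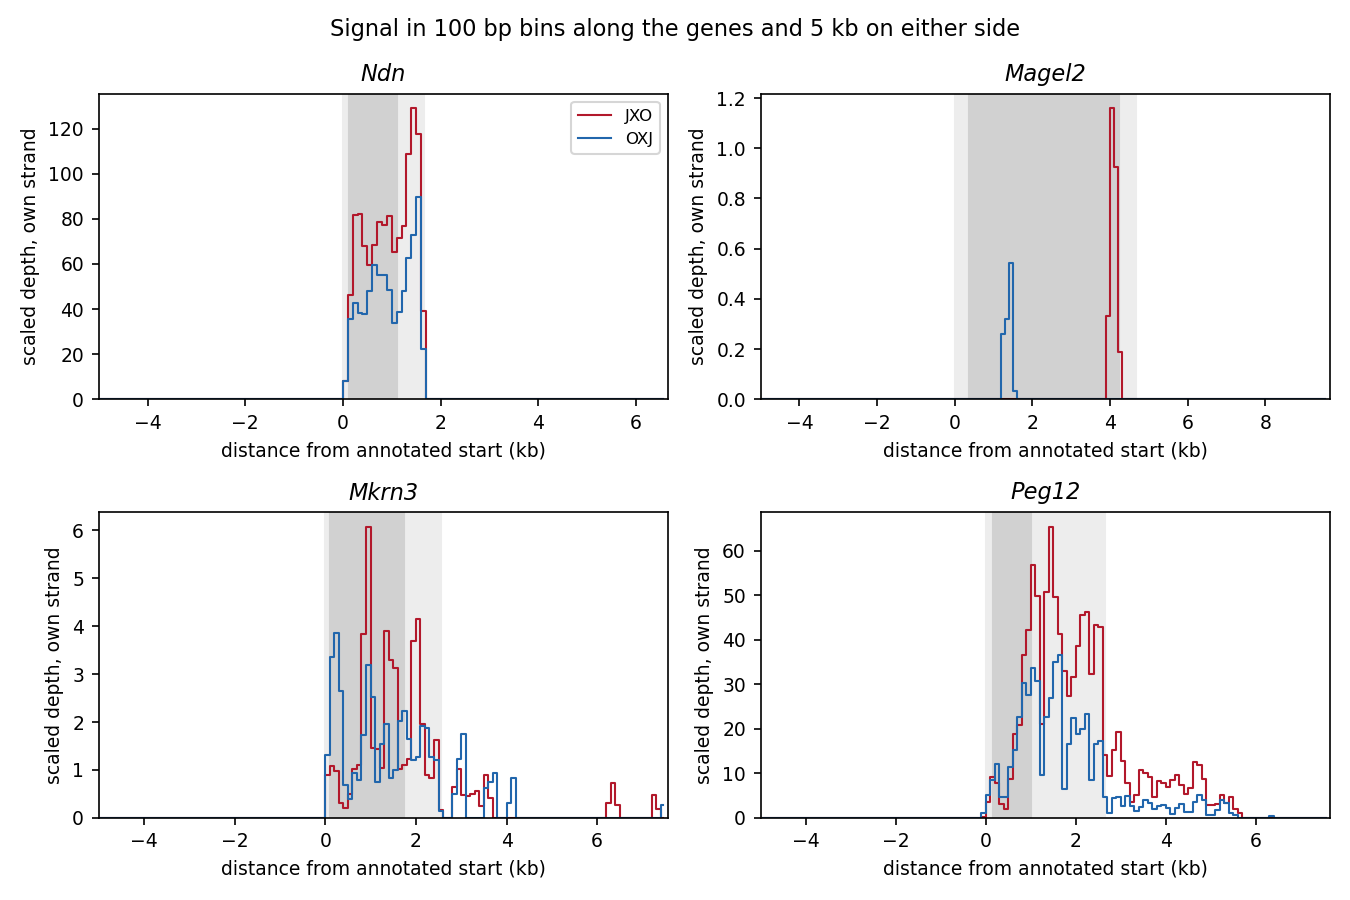
Scaled depth on the strand of each gene in bins of 100 bases, against the distance from the annotated start in kb, in JXO (red) and OXJ (blue). Light grey marks the annotated gene and dark grey its coding sequence. *Ndn* ends at the 3′ side with its annotation, whereas *Peg12* goes on for 3032 bases in JXO and 2966 in OXJ past its annotated end; vertical axes differ between panels.

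Against the mm9 reference outside the region of the 4 genes, the sequences are distinct enough for matching reads to be placed. Reads of the JF1 allele can differ from that reference, and the effect of this on the depth in either cross was not tested. No stretch of mm9 outside this region matched any of the 4 genes, or the 3100 bases after *Peg12*, at 98% identity or more over 100 bases. Matches within the region, between the genes or inside 1 of them, were not counted. At 90% the 3100 bases after *Peg12* had 7 such matches, which touched 160 of them, and *Peg12* itself had 1 match over 261 bases (90.5% identity).

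Read starts were recovered from the steps of the depth, to show how many fragments a level rests on. *Ndn* had 1932 reads from 711 start positions in JXO and 1376 from 693 in OXJ, with up to 54 and 38 reads from the same start. *Peg12* had 1278 reads wholly inside the gene from 604 positions in JXO, resolved to within 1 read, and 839 from 576 in OXJ. *Mkrn3* had 72 reads from 55 positions in JXO and 73 from 71 in OXJ. Reads per start were thus 2.72 in JXO and 1.99 in OXJ for *Ndn*, 2.12 and 1.46 for *Peg12*, and 1.31 and 1.03 for *Mkrn3*. Among 17 other single-exon genes with 20 to 200 reads, the median was 1.36 in JXO and 1.08 in OXJ, and 16 of the 17 were higher in JXO. Below, ratios are also given with the reads of a start counted once. Start positions are limited by the length of a gene, so their number levels off in a deep one, and such a ratio shrinks with or without repeated fragments; the part that repeats played was not tested.

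The crosses were compared as log2 of JXO over OXJ on the deposited scale. On this scale the median of the 931 genes was 0.46, and 743 genes (79.8%) were higher in JXO, so each value is also given relative to that median. Of the 3 genes with at least 10 reads, 0 were 2-fold or more apart in either direction, against 11.5% of genes 2-fold higher in JXO and 3.22% 2-fold higher in OXJ. *Ndn* was 1.58-fold higher in JXO, a log2 ratio of 0.66 (0.52 to 0.80) and 0.20 above the median gene. With reads of the same start counted once the log2 ratio of *Ndn* on the deposited scale was 0.21. *Peg12* was 1.70-fold higher in JXO, a log2 ratio of 0.77 (0.59 to 0.95) and 0.31 above the median gene. With the same starts counted once its log2 ratio on the deposited scale was 0.24. *Mkrn3* had a log2 ratio of 0.15 (−0.55 to 0.86), and −0.31 relative to the median gene. For *Magel2*, 4 reads against 2 gave a ratio of 1.17 with an interval of −3.09 to 7.05. Of the 3 measured neural markers, *Nes* and *Olig2* were over 2-fold higher in JXO (log2 1.14 and 1.88). The third, *Sox2*, had a log2 ratio of 0.06, below the median gene. *Olig2* rests on 23 JXO reads and 7.05 OXJ reads, and its own-strand share was low (JXO 54.8%, OXJ 41.3%). The fibroblast markers *Col1a2*, *Lum* and *Dcn* had log2 ratios of 0.59, 0.29 and −0.18. Whether cell types played a part in the ratios of the 4 genes was not tested.

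**Figure D3:**
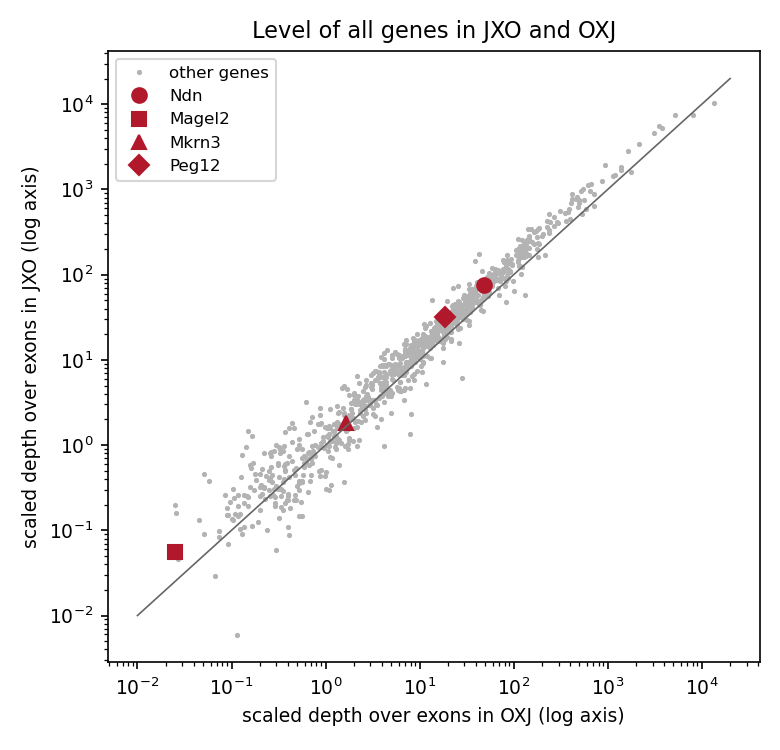
Level over exons in JXO against OXJ (both log axes) for the genes with at least 10 reads over both libraries and at least 1 read in each (grey), with the 4 genes in red. The line marks equal levels; *Ndn*, *Peg12* and *Magel2* lie above it, as 79.8% of the genes do, and *Mkrn3* lies next to it.

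The ratio of *Ndn* had overlapping intervals over the coding sequence and the 3′UTR, whereas that of *Peg12* did not. *Ndn* had log2 ratios of 0.65 (0.46 to 0.84) over the coding sequence and 0.70 (0.48 to 0.92) over the 3′UTR. *Peg12* had 0.14 (−0.25 to 0.52) over the coding sequence, 0.97 (0.76 to 1.18) over the 3′UTR and 1.60 (1.18 to 2.03) over the 5 kb downstream, where JXO was 3.03-fold higher. Relative to the median gene these 3 values were −0.32, 0.51 and 1.14, so the direction over the coding sequence depends on the scale. The interval over the coding sequence of *Peg12* overlaps neither of the other intervals. Counting read starts once, with reads wholly inside each part, left the same order. The coding sequence had 110 starts in JXO and 150 in OXJ (log2 ratio −0.28), the 3′UTR 449 and 375 (0.43) and the 5 kb downstream 235 and 125 (1.08). For *Ndn* the starts were 419 in JXO and 401 in OXJ over the coding sequence (0.23) and 222 and 221 over the 3′UTR (0.18). For *Mkrn3* the intervals of all parts included 0.

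**Figure D4:**
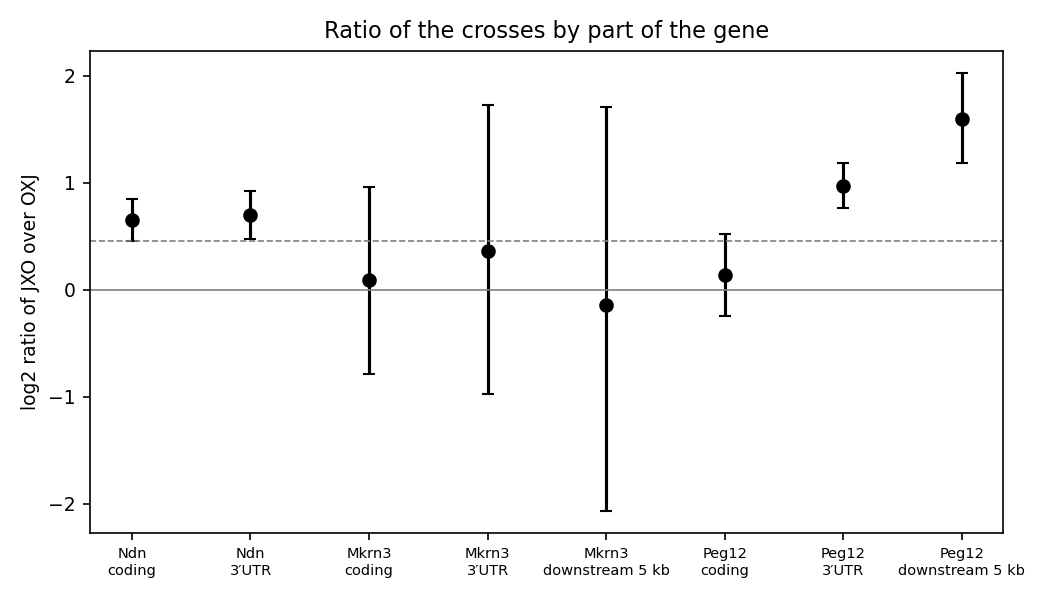
Log2 ratio of JXO over OXJ by part of the gene, with 95% counting intervals, on the deposited scale. The solid line is at 0 and the dashed line at the median gene (0.46). *Peg12* goes from 0.14 over the coding sequence to 1.60 over the 5 kb downstream, whereas both parts of *Ndn* lie at 0.65 and 0.70.

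Other genes were measured by fixed lists. The first held other genes of the Prader-Willi/Angelman region. *Ube3a*, the ubiquitin ligase gene of Angelman syndrome, had a level of 219 in JXO and 117 in OXJ (log2 ratio 0.91), and *Atp10a*, a phospholipid flippase gene, 45.8 and 42.5 (0.11). Neither was 2-fold apart, against 11.5% of all genes 2-fold higher in JXO and 3.22% 2-fold higher in OXJ, so this is near the background. The median log2 ratio over all genes was 0.46. The GABA-A receptor subunit gene *Gabra5* had 0.0491 in JXO and 0.0218 in OXJ. In both libraries *Ndn* thus lay between *Ube3a* and *Atp10a* in level and *Peg12* below *Atp10a*, and *Magel2* was as low as *Gabra5*, whose count was 2 reads in JXO and 1 in OXJ. The 10 paralogs and family members (such as *Maged1*, *Mkrn1* and *Frat1*) lay outside the stretches and were not analysed.

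Of 9 other imprinted genes on a list meant for genes with a single exon or of retrotransposed origin, 8 were measured. *Peg10*, of retrotransposon origin, had 58.4 in JXO and 69.7 in OXJ. *Nnat*, a neuronal proteolipid gene kept on the list although it has 3 exons in the annotation, had 30.4 and 16.4. The retrogene *Mcts2* had 27.9 and 18.6. The retrogenes *Zrsr1* (4.76 in JXO and 3.88 in OXJ) and *Nap1l5* (3.34 and 2.62) were closer to *Mkrn3*. *Rtl1* had 0.325 and 0.223 on its own strand, with 10.9 and 9.25 on the other strand, where its antisense RNA is known. *Klf14*, a zinc finger gene, had 3 reads in JXO and 4 in OXJ, and *Usp29* was listed at 0. Of the 6 with at least 10 reads, 5 were higher in JXO and 0 were 2-fold apart, and their median log2 ratio was 0.45. Over all genes 79.8% were higher in JXO, 11.5% were 2-fold higher in JXO and 3.22% in OXJ, and the median was 0.46, so this list was near the background. The own-strand share of *Nap1l5* was 73.2% in JXO and 83.0% in OXJ, that of *Zrsr1* 90.6% and 88.2% and that of *Mcts2* 94.7% and 97.7%, beside 96.5% and 96.1% for *Ndn*. That of *Peg10* was above *Ndn* in both libraries, at 97.9% in JXO and 98.5% in OXJ. That of *Nnat* was below it, at 83.4% and 77.7%, as was that of *Rtl1*, at 2.90% and 2.36%.

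The genes most like each member were taken as those nearest in the plane of log2 levels in JXO and OXJ, among 797 genes with at least 10 reads in each library (798 for *Magel2*). For *Ndn* these were *5730437N04Rik* (77.8 in JXO and 47.0 in OXJ) and *S1pr2*, a receptor for sphingosine 1-phosphate (74.9 and 50.7). For *Peg12* they were *Dip2b* (31.6 and 18.7) and *Tubgcp4*, of the gamma-tubulin complex (32.0 and 18.8). For *Mkrn3* they were the pseudogene *Gm7850* (1.83 and 1.63) and the transcription factor gene *Pou6f1* (1.81 and 1.57). *Magel2*, with 4 reads in JXO and 2 in OXJ, is itself below that limit, so genes with as few reads were left out of its comparison. The nearest of the genes kept, *Sla* and *Tbr1*, lay at a distance of 2.39 and 2.74 on the log2 scale. This distance follows from the limit and does not show that *Magel2* lacks near neighbours. With 2 libraries this is a likeness of level and ratio only.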

How the data were processed

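Libraries of 1 JXO and 1 OXJ MEF line were made from RNA without ribosomal RNA, kept strand-specific by dUTP, and read from both ends. The submitters' processing notes name CASAVA 1.9 and TopHat 1.2.0, with mm9 as the genome. The authors computed the depth per base and strand per 50000000 aligned reads; the 4 deposited tracks hold log2 values of 1 plus this depth. Since TopHat was run on the C57BL/6J reference with several loci allowed per read, reads that differ from it or match more loci may be lost or placed more than once.

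Here the log2 transform was undone. Divided by the step of 1 read, the depth came out whole at all bases (largest relative deviation 3.61e-14 in JXO and in OXJ), with totals of 76712608 aligned reads in JXO and 86369632 in OXJ implied by that step. The track named forward was taken as (−) strand RNA. Covered bases no more than 50 kb apart formed a stretch, and a gene of GENCODE M1 was measured, over its exons, where 95% of its span was covered in this sense. A pair of reads was counted as 200 bases in exact Poisson, Clopper-Pearson and conditional binomial intervals, and 3 pairs set the floor. Genes needed 10 reads over both libraries to be compared, and 2-fold was the threshold. No p-value was computed.

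The genes named were the 4 members, the measured genes of 3 lists, of which 1 is not reported here, and the 2 genes nearest to each member in level. The members and lists were chosen with earlier results of these data known. Alternatives changed the bases, the measure, the floor, the scaling, the flank and the gap; 3 others (same starts counted once, equal totals without the 2 deepest 10 kb bins, the last 1 kb as reference) were chosen after seeing the data. Motifs were searched from 250 bases before to 50 after the start. Scripts were tested on simulated data. Python 3.11.15, numpy 2.4.6, pandas 2.3.3, scipy 1.17.1, matplotlib 3.10.9 and BLAST 2.17.0 were used.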

Additional observations from a re-analysis of the deposited data

How the results depend on the processing

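No paired analysis was possible because each cross had 1 library. Of the alternative values, 169 lay within the counting interval of the value reported (or within 100 bases of it, for the ends of the signal) and 43 did not, and no called direction was turned. Part of the 169 could not have moved, so their number does not measure how stable the results are. This holds for alternatives within 5 kb flanks without a read and for shares of genes without a read on the other strand. It also holds for shares without exons of the other strand, which no gene has. Values without a call changed sign at *Mkrn3*, whose log2 ratio was −0.03 with equal totals, −0.31 with the median gene at 0, −0.34 with equal totals without the 2 deepest 10 kb bins and −0.20 with the same starts counted once. The cause of a shift was not tested except where the construction gives it.

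The log2 ratio was 0.48 for *Ndn* and 0.59 for *Peg12* with equal totals, 0.20 and 0.31 with the median gene set to 0, 0.17 and 0.28 with equal totals without the 2 deepest bins, and 0.21 and 0.24 with the same starts counted once. Over the coding sequence alone that of *Peg12* was 0.14.

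With the mean of log2 values the level of *Ndn* was 64.6 in JXO and 42.1 in OXJ, and that of *Peg12* 23.2 and 15.2. Over the coding sequence alone *Peg12* had 17.6 in JXO and 16.0 in OXJ, and the median of 100 base bins gave it 34.4 in JXO. *Magel2* was at 0 by the median of bins in JXO and OXJ, and with a floor of 2 reads in OXJ.

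The own-strand share of *Ndn* over the coding sequence was 95.2% in JXO and 94.8% in OXJ, where it was under 95%. As a share of covered bases, which gives deep and thin bases the same weight, it was 53.2% in JXO and 50.9% in OXJ for *Ndn*, and 66.6% and 71.4% for *Peg12*.

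The downstream signal of *Peg12* was 28.1% of the gene level in JXO and 14.0% in OXJ over 2 kb, 7.32% and 4.18% over 10 kb, and 10.4% in JXO by the mean of log2 values. Against the last 1 kb of the gene it was 12.4% in JXO and 8.86% in OXJ. Upstream of *Peg12* it was 0% in JXO with a floor of 2 reads. Downstream of *Mkrn3* it was 1.77% in JXO with a floor of 2 reads and 21.0% in OXJ over 2 kb. The signal of *Peg12* ended 2369 bases past the annotated end in JXO and 66 in OXJ without bridging, and 2295 in OXJ with a floor of 2 reads; that of *Mkrn3* ended 1099 bases past it in JXO with gaps of 300 bases bridged.

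With no minimum other than 1 read, 14.1% of genes were 2-fold higher in JXO, 5.46% 2-fold higher in OXJ, and 83.6% had over 50% of signal on the own strand in both libraries. Among protein-coding genes 84.7% were higher in JXO, 92.0% had over 50% and 62.0% at least 95% on the own strand. The depth limits *Magel2*, with 4 reads in JXO and 2 in OXJ, and differences between the libraries in *Mkrn3*.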
